A study of Mus musculus with 12 samples.

Results

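The genes described here encode the proteins that bring long-chain fatty acids into heart cells, burn them in mitochondria or store them in lipid droplets. There were 42 of them, chosen by name for their place in this route, among 20352 genes that could be named on the arrays. The choice was made with earlier results of these data known. All 42 were measured, by 510 probesets, which are groups of array probes that each cover a stretch of a gene. A gene had between 2 and 52 probesets (median 10), and its value in an array was the median over them. The genes were set apart by role into uptake and activation (6), the carnitine shuttle (6), malonyl-CoA control of the shuttle (2), acyl-CoA dehydrogenases (7), later steps of beta-oxidation (6), steps for unsaturated fatty acids (4), electron transfer (3), thioesterases and uncoupling (4), and storage (4).

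The samples were hearts of C57BL/6J mice aged 12 weeks, with no genetic change or drug named in the labels. In 6 mice the heart had been infarcted and the border zone beside the infarct was taken 2 weeks after surgery. In 6 sham-operated mice the corresponding tissue was taken at the same time, and the series text calls the 6 samples of a condition biological replicates. The sources used here do not state how the infarct was made or which sex the mice were. The comparison asks how the injured border zone differed from tissue that went through surgery without an infarct.

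The heart draws most of its energy from fatty acids. They are released from circulating triglyceride, cross the cell membrane, and are joined to coenzyme A; the carnitine shuttle then carries the acyl chain into the mitochondrion, where beta-oxidation shortens it step by step and passes electrons to the respiratory chain. Malonyl-CoA blocks entry into the shuttle, and nuclear receptors of the PPAR and ERR families are known to drive many of the genes. Fatty acids that are not burned are esterified and kept in lipid droplets, from which lipases release them again.

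Overall brightness differed little between the 12 arrays: the median over all probesets ran from 6.997 to 7.026 in sham and from 7.045 to 7.058 in infarcted arrays (a log2 scale, inferred from the values). Genes of the cardiomyocyte sarcomere were bright, with Tnnt2 (cardiac troponin T) at 13.62 and Actc1 (cardiac actin) at 13.92 in sham hearts. Infarcted replicates 4, 5 and 6 stood apart in atrial markers, with a median deviation from the sham mean of 1.58, 1.36 and 0.89 on the log2 scale, against -0.16 to -0.04 in the other infarcted arrays. Infarcted replicate 5 also stood apart in adipocyte markers, at 2.36, and replicate 4 was next at 0.57. Counts of calls without replicates 4 and 5 are given beside the counts with them where they differ.

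A pair of genes in the route shares an upstream region. Hadha and Hadhb encode the alpha and beta subunits of the mitochondrial trifunctional protein, and their starts lie head to head on chromosome 5, with 272 bases between them (RefSeq, GRCm38.p6). The region below lies upstream of both, at chr5:30155003-30155230, and is printed on the plus strand, in the direction of Hadhb; it is shown because both genes are transcribed outwards from it and their changes are compared further on.
Hadhb and Hadha: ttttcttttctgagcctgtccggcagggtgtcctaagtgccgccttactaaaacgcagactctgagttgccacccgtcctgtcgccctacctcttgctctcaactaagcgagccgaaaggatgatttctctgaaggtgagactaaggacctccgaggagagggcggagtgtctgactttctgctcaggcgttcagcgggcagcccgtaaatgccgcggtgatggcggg

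The 250 bases upstream of each listed start were searched on both strands for letters that PPAR and ERR receptors are known to bind. RefSeq's table held such a stretch for 34 of the 42 genes and for 27025 genes in all. The PPAR element was taken as the half-site AGGTCA repeated in the same direction with any single base between. None of the 34 held it (0.0407% of all genes did) or the ERR element TCAAGGTCA (0.422%). Where so few genes hold an element, none among 34 is the usual outcome. The search could therefore not show that these genes lack either element. The half-site AGGTCA by itself, which lies within both elements, was in 7 of the 34 (20.6%), against 15.8% of all genes, and the longer AAGGTCA in 1 of them, Acadm (2.94%, against 4.7%). The 7 were Cd36, Cpt1a, Acadvl, Acadm, Echs1, Ucp3 and Plin5. Stretches from 2 of these are printed 5′ to 3′ toward the gene, with the half-site or its reverse complement in capitals. They are Ucp3, which fell most and holds the half-site at a pair of places, and Acadm, which holds the longer form.
Ucp3, chr7:100472822-100472867, plus strand: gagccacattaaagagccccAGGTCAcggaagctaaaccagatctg
Ucp3, chr7:100472927-100472972, plus strand: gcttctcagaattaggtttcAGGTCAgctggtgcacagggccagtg
Acadm, chr3:153944867-153944893, minus strand: gTGACCTtcgggctccggtgacactgg
In Ucp3 the half-sites end 144 and 39 bases before the start and in Acadm 244. The match is a description of letters, and no binding was measured in these samples.

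In the infarcted border zone 34 of the 42 genes were lower, 1 was higher and 7 did not pass the test. Of all 20352 genes, 10.2% were lower, 10.1% higher and 20.3% one or the other (limma, Benjamini-Hochberg adjusted p under 0.05). As the 42 were chosen with earlier results known, such shares are a background and not a test of the list. In 41 of the 42 the infarcted mean was the lower, as in 58% of all genes. The median change of the 42 was -0.45 on the log2 scale, against -0.04 for all genes. Among the 34, falls ranged from -0.20 to -1.05, the median being a 1.39-fold fall, and only Ucp3 reached 2-fold. Sham and infarcted arrays did not overlap in 30 of the 42 with the infarcted arrays lower, against 5.29% of all genes, and in 31 in either direction, against 11.3%. In the 34 genes that fell, no infarcted array reached the mean of the sham arrays. A call made on the same arrays makes this likely, so it is no separate support.

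Without infarcted replicates 4 and 5, 31 of the 42 were lower, against 7.15% of all genes, and all 31 were among the 34. By role, the carnitine shuttle then had 4 of 6 lower and the dehydrogenases 3 of 7, and the other roles kept their counts. Without replicate 6 alone, also 31 were lower. Less RNA per cell and fewer cardiomyocytes cannot be told apart in pieces of tissue. The 19 measured sarcomere markers had a median change of -0.04 (2 lower, 1 higher). Tcap, which caps titin in the Z-disc, had the smallest p and fell by 0.79 (adjusted p = 0.000147), Cmya5 fell by 0.54 and Pdlim5 rose by 0.56, the last pair named after their values were seen. The summed linear signal of the list, in which bright markers such as Actc1 weigh most, ranged from 125794 to 130797 in sham and from 121253 to 126525 in infarcted arrays. The corresponding sums of the 42 fatty acid genes were 122243 to 126328 and 88788 to 104889. With every array centred on the sarcomere markers, 30 of the 42 were still lower, against 5.87% of all genes, with a median of -0.37. Many of these markers lay high in the range of the arrays, which ended at 14.37 (Actc1 at 13.92, Tnni3 at 13.49 in sham hearts). Whether signals that high follow the amount of RNA was not tested. That centring turned the calls over all genes from 2074 lower and 2050 higher to 1194 and 2774, while centring on array medians gave 3081 and 1721 and quantile normalization 2653 and 1815; the 42 stood at 34 lower and 1 higher under both of the latter.

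**Figure D1:**
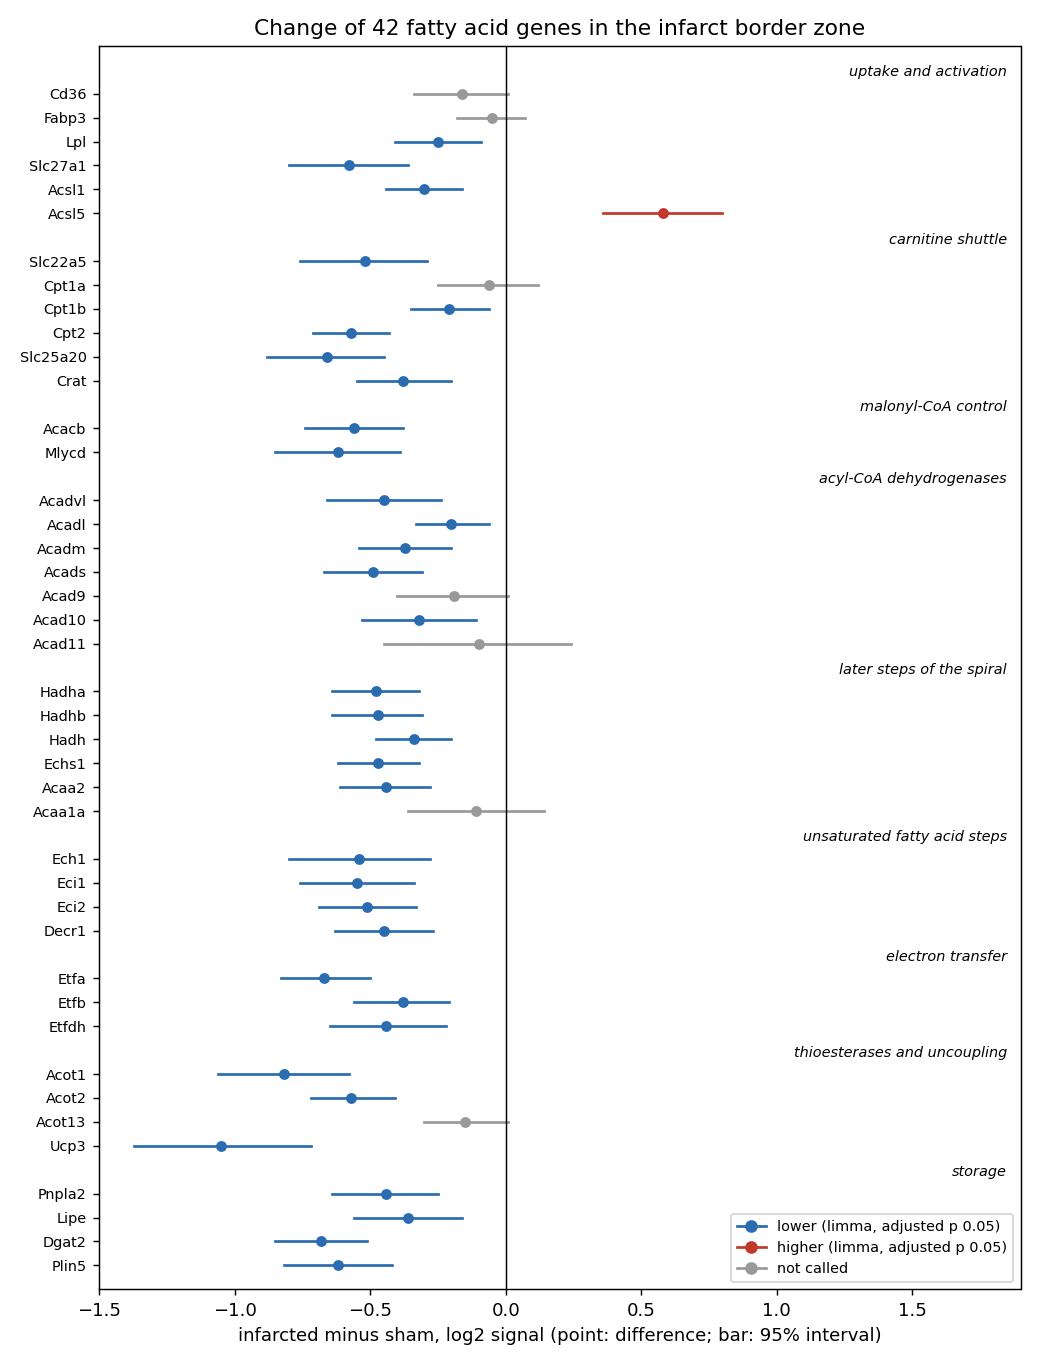
Difference between infarcted and sham arrays for each of the 42 genes, in log2 signal, with its 95% interval from limma (6 arrays per group), in blocks by role; colour gives the call. The points of 41 genes lie to the left of 0, and Acsl5 is the gene to the right, at 0.58.

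Single probesets were also fitted. Of the 510, 469 were lower in infarcted tissue (92%, against 52.1% of all 212097 probesets with 1 gene name). After adjustment over all probesets 307 were lower (60.2%, against 4.6%) and 10 higher (6.96% of all probesets were). Without infarcted replicates 4 and 5, 226 of the 510 were lower, against 2.71% of all probesets, and 7 higher. All 10 that rose belonged to Acsl5. In 32 of the 42 genes every probeset was lower, and in Acsl5 all 23 were higher.

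Uptake and activation had the smallest median change of the roles, -0.21, with 3 of 6 genes lower and 1 higher. Slc27a1, a fatty acid transport protein with acyl-CoA synthetase activity, ran from 10.64 to 11.04 in sham arrays (median 10.93) and from 10.03 to 10.60 in infarcted arrays (median 10.24). The infarcted arrays all lay below the sham arrays, with replicate 3 lowest, and the gene fell by 0.58 (1.49-fold, adjusted p = 0.00122). Acsl1, the main long-chain acyl-CoA synthetase of heart, ran from 12.31 to 12.46 in sham arrays (median 12.37) and from 11.93 to 12.22 in infarcted arrays (median 12.07). It fell by 0.30 (adjusted p = 0.00466), again with no overlap.

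Acsl5, another acyl-CoA synthetase, moved the other way. Its signal was 6.92 to 7.60 in sham arrays (median 7.31) and 7.73 to 8.01 in infarcted arrays (median 7.85). Every infarcted array was above every sham array, and the rise was 0.58 (1.5-fold, adjusted p = 0.0012). With dim probesets left out the rise was 0.35 (adjusted p = 0.0351). The difference between the changes of Acsl1 and Acsl5 was -0.88 (95% interval -1.13 to -0.64). It had an exact two-sided permutation p of 0.00216, the smallest that 6 against 6 arrays allow, and 0.00974 adjusted over the 9 pairs of genes compared.

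Lpl (lipoprotein lipase, which frees fatty acids from circulating triglyceride) fell by 0.25, from 12.79 ± 0.07 to 12.54 ± 0.14 (SD, n = 6). Cd36, the membrane fatty acid translocase, differed by -0.16 (interval -0.34 to 0.01, adjusted p = 0.186), and all 19 of its probesets were lower. Fabp3, the heart fatty acid binding protein, differed by -0.05 (interval -0.18 to 0.07). The signals of Fabp3 and Cd36, at 13.18 and 12.49 in sham hearts, lay high in the range of the arrays, which ended at 14.37. Cd36 and Lpl changed to an extent that could not be separated (difference 0.09, interval -0.12 to 0.30).

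In the carnitine shuttle 5 of 6 genes fell, with a median of -0.45. Cpt2, which releases the acyl chain inside the mitochondrion, ran from 10.92 to 11.25 in infarcted arrays (median 11.10), all below the sham arrays (median 11.67, highest 11.75), and fell by 0.57 (1.48-fold, adjusted p = 3.81e-05). Slc25a20, the carnitine-acylcarnitine carrier of the inner membrane, fell by 0.66, from a tight sham group (10.65 ± 0.03) to a wider infarcted one (9.99 ± 0.25, n = 6 each). Its lowest infarcted arrays were replicates 3 and 5, both at 9.70, its median was 10.03, and its highest was at 10.30. Slc22a5, which takes carnitine into the cell, fell by 0.52, and Crat, which moves short acyl groups to carnitine, by 0.38.

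Entry to the shuttle is set by carnitine palmitoyltransferase 1. Cpt1b, its muscle form, fell by 0.21 (limma adjusted p = 0.0451), from 11.67 ± 0.05 to 11.46 ± 0.12 (SD, n = 6). It was measured by 2 probesets only, at -0.21 and -0.20, and neither passed by itself (limma adjusted p = 0.179 and 0.161 over probesets). Cpt1a, the liver form, differed by -0.06 (interval -0.25 to 0.12) and its groups overlapped. The difference between these changes, -0.14 (interval -0.40 to 0.12), did not pass (exact permutation p = 0.26, adjusted p = 0.39), so unequal change of the forms was not shown.

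Acacb and Mlycd, the genes chosen for malonyl-CoA control of the shuttle, both fell. Acacb (acetyl-CoA carboxylase 2, which makes malonyl-CoA at the mitochondrion) was at 9.90 to 10.34 in infarcted arrays (median 10.16) against a sham median of 10.69 and a highest sham array of 10.76. All 52 of its probesets were lower, 43 of them past the threshold, and the gene fell by 0.56 (adjusted p = 0.000282). Mlycd (malonyl-CoA decarboxylase, which removes malonyl-CoA) ran from 7.40 to 7.96 in infarcted arrays (median 7.79) below sham arrays from 8.22 to 8.58 (median 8.31), and fell by 0.62. The changes of Acacb and Mlycd differed by 0.06 (interval -0.15 to 0.27). Acaca, another acetyl-CoA carboxylase gene, is listed with fatty acid synthesis further on. It differed by 0.24 (interval -0.07 to 0.54) and did not pass (limma adjusted p = 0.279).

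**Figure D2:**
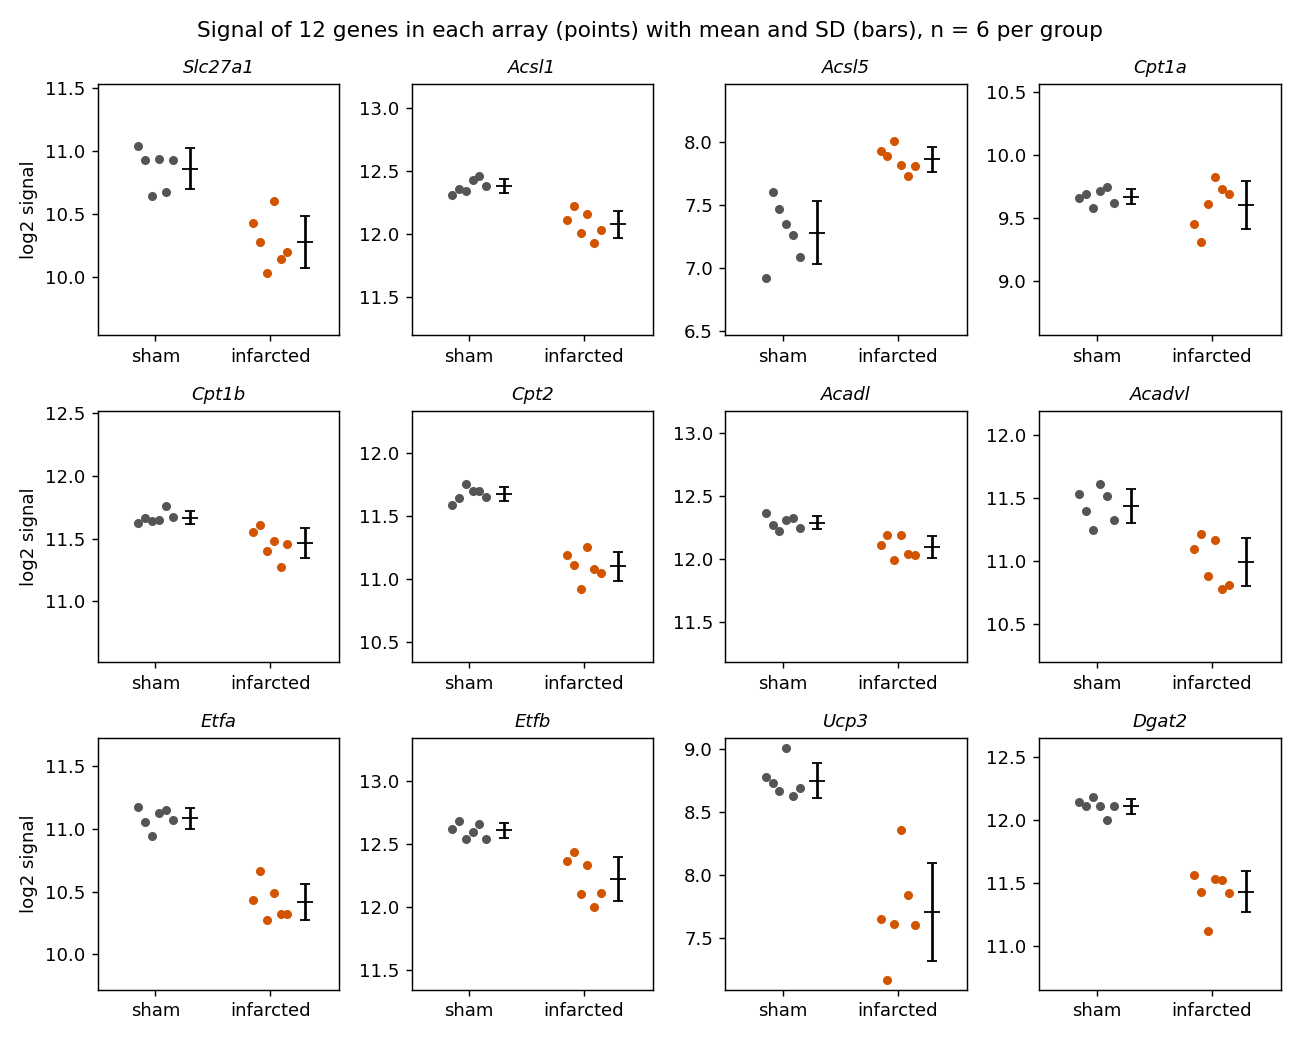
Log2 signal of 12 of the genes in each array, with sham arrays on the left and infarcted arrays on the right of each panel; every axis spans 2 log2 units, and bars give mean and SD (n = 6). Acsl5 is the panel in which the infarcted arrays lie above the sham arrays, from 7.73 to 8.01, and Cpt1a is one in which the groups overlap.

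Of the 7 acyl-CoA dehydrogenases, which carry out the first reaction of each round of beta-oxidation, 5 fell and none rose, with a median of -0.32. Acads, for short chains, had sham arrays within a narrow span (10.53 ± 0.02) and infarcted arrays from 9.77 to 10.30 (median 10.04), with replicate 5 lowest. It fell by 0.49 (1.41-fold, adjusted p = 0.000849). Acadm, for medium chains, fell by 0.37, from a sham median of 12.79 to an infarcted median of 12.38 (range 12.14 to 12.58), also with no overlap.

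Acadvl and Acadl, for very long and long chains, fell unequally. Acadvl ran from 10.78 to 11.22 in infarcted arrays (median 10.99) against a sham median of 11.46, a fall of 0.45. Acadl ran from 11.99 to 12.19 (median 12.07) against 12.29, a fall of 0.20. The groups did not overlap in either, and the difference between the changes was 0.25 (interval 0.11 to 0.39, exact permutation p = 0.00433, adjusted p = 0.013 over the 9 pairs).

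The other dehydrogenases were less clear. Acad10 fell by 0.32 from a low signal (6.76 ± 0.24 in sham, n = 6); with dim probesets left out the difference was -0.19 and did not pass (adjusted p = 0.189). Acad9, also an assembly factor of respiratory complex I, differed by -0.19 (interval -0.40 to 0.01). Acad11 differed by -0.10 (interval -0.45 to 0.24), but its 2 probesets went separate ways. The brighter was at 10.75 in sham and 10.34 in infarcted hearts (-0.41, limma adjusted p = 0.00436 over probesets), and the dimmer at 7.73 and 7.94 (0.21, adjusted p = 0.756).

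In the later steps 5 of 6 genes fell, with a median of -0.46. Echs1, the short-chain enoyl-CoA hydratase, had infarcted arrays from 9.97 to 10.20 (median 10.14) below a sham median of 10.60, and fell by 0.47 (adjusted p = 0.000266). Hadh, the short-chain hydroxyacyl-CoA dehydrogenase, fell by 0.34 and Acaa2, the mitochondrial thiolase, by 0.44. Acaa1a, a thiolase of peroxisomes rather than mitochondria, differed by -0.11 (interval -0.36 to 0.14).

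The head-to-head genes Hadha and Hadhb, whose shared region is printed above, changed by nearly the same amount. Hadha was at 12.13 in the median sham array and 11.62 in the median infarcted array (range 11.45 to 11.82), and Hadhb at 12.21 and 11.72 (range 11.56 to 11.89). The falls were 0.48 and 0.47, both 1.39-fold. The difference between them was -0.01 with the narrowest interval of the 9 pairs (-0.07 to 0.06). Falls of this size were not particular to the pair, since Echs1 also fell by 0.47 and the median change of the 42 was -0.45. The part of the shared region was not tested.

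All 4 genes for double bonds in unsaturated fatty acids fell, with a median of -0.52. Eci1 and Eci2, enoyl-CoA isomerases, fell by 0.55 and 0.51. Eci1 ran from 10.43 to 11.04 in infarcted arrays (median 10.72) against a sham median of 11.26, and Eci2 from 9.29 to 9.69 (median 9.51) against 10.01. The groups did not overlap in either, and infarcted replicate 5 was lowest in both. Ech1, a dienoyl-CoA isomerase, fell by 0.54 and Decr1, the dienoyl-CoA reductase, by 0.45.

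The 3 genes of electron transfer, which hand electrons from the dehydrogenases to ubiquinone, all fell. Etfa, the alpha subunit of the electron transfer flavoprotein, had the smallest p of the 42 genes. Its infarcted arrays lay at 10.27 to 10.66 (median 10.37) below a sham median of 11.09, a fall of 0.67 (1.59-fold, adjusted p = 2.96e-05). Etfb, its beta subunit, ran from 12.00 to 12.43 (median 12.22) below a sham median of 12.61, and fell by 0.38, and Etfdh, the ubiquinone oxidoreductase, fell by 0.44. Etfa fell more than Etfb (difference -0.29, interval -0.39 to -0.19, exact permutation p = 0.00216, adjusted p = 0.00974). With the mean over probesets as the gene value this difference was -0.12 and did not pass (exact permutation, adjusted p = 0.156). Etfb was the brighter of the pair, as Acadl was beside Acadvl, and the part of signal level in these differences was not tested.

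Thioesterases and the uncoupling protein held the largest falls. Acot1 and Acot2, cytosolic and mitochondrial acyl-CoA thioesterases, fell by 0.82 and 0.57. Acot1 was dim, with infarcted arrays from 5.55 to 6.06 (median 5.87) against a sham median of 6.67, and Acot2 ran from 10.12 to 10.51 (median 10.26) against 10.85. These genes are close copies, so probes may read both; the difference of -0.25 did not pass (interval -0.46 to -0.04, exact permutation p = 0.0281, adjusted p = 0.0633), but passed without sham replicate 3 or 5 (adjusted p = 0.0244 for each), with dim probesets left out (0.0195) and after quantile normalization (0.0487). Acot13 differed by -0.15 (interval -0.30 to 0.01).

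Ucp3, a mitochondrial carrier of the uncoupling protein family and a known PPAR target, fell most, by 1.05 (2.06-fold, interval -1.37 to -0.72 on the log2 scale, adjusted p = 0.000212). It is named with its values because it had the largest fall. Sham arrays were at 8.63 to 9.01 and infarcted arrays at 7.17 to 8.36, so no array of one group reached the other. The infarcted group was wide (SD 0.39), with replicate 2 lowest and replicate 4 highest, and without replicates 4 and 5 the fall was 1.24.

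**Figure D3:**
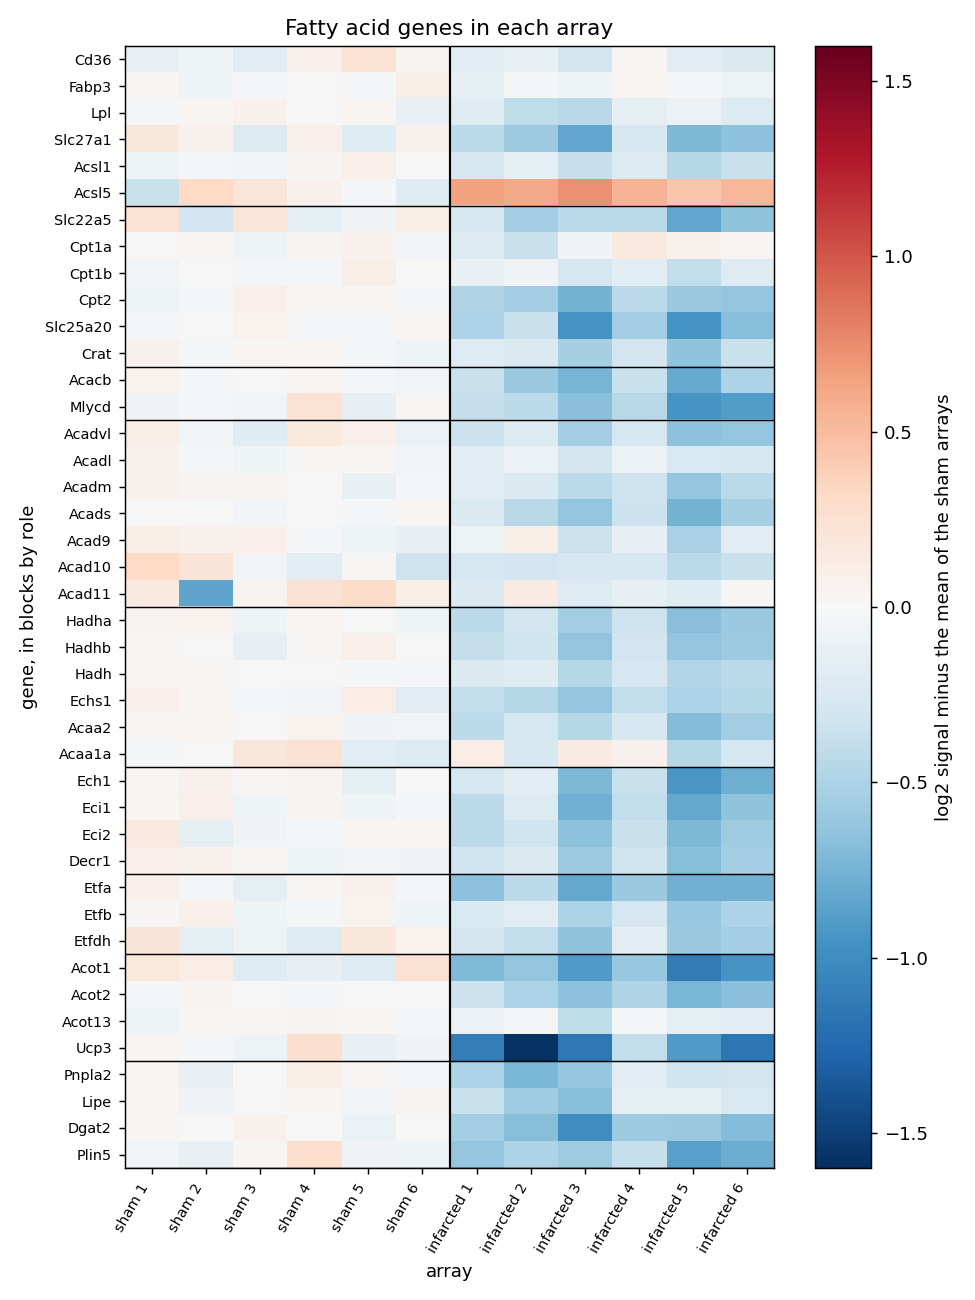
Deviation of each gene in each array from the mean of the 6 sham arrays, in log2 signal, with genes in blocks by role and blue for lower. The infarcted columns are blue in nearly all rows and darkest in replicates 3 and 5, the row of Acsl5 is red, and sham replicate 2 is dark blue in the row of Acad11.

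All 4 storage genes fell, with a median of -0.53. Dgat2, which adds the last acyl chain to triglyceride, ran from 11.12 to 11.56 in infarcted arrays (median 11.48), below a sham median of 12.11, and fell by 0.68 (1.6-fold, adjusted p = 3.14e-05). Plin5, a droplet coat protein that tethers droplets to mitochondria, fell by 0.62, with infarcted arrays from 7.89 to 8.40 (median 8.16) below a sham median of 8.72. Of the lipases, Pnpla2, which starts triglyceride breakdown, fell by 0.44 and Lipe (hormone-sensitive lipase) by 0.36, amounts that differed by -0.08 (interval -0.18 to 0.02).

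Adipocytes also use storage genes. The median deviation of the 4 was -0.27 and -0.45 in infarcted replicates 4 and 5, where adipocyte markers deviated by 0.57 and 2.36. It was -0.65 in replicate 3, where adipocyte markers deviated by 0.38, and -0.62 to -0.49 in the other infarcted arrays. Of 9 adipocyte markers 1 was lower, Thrsp (-0.72, limma adjusted p = 0.0082), and none higher. Their summed linear signal was 2671 to 3033 in sham and 2448 to 6260 in infarcted arrays. In sham hearts Fabp4, at 11.14, weighed most in that sum, and it differed by -0.01 between the groups. Adipoq, the defining adipocyte gene, was at 3.63 in sham hearts and at 6.59 in infarcted replicate 5. With Adipoq that low in sham hearts, the signals of Fabp4 and Thrsp there cannot be read as adipocyte content. The same holds for the fall of Thrsp. Without replicates 4 and 5 the falls were 0.73 for Dgat2, 0.62 for Plin5, 0.54 for Pnpla2 and 0.46 for Lipe.

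The infarcted arrays differed in how low the genes were. The median deviation of the 42 genes from the sham mean was between -0.02 and 0.03 in sham arrays. In infarcted arrays it was -0.29 in replicate 4, -0.31 in replicates 1 and 2, -0.51 in replicate 6, -0.57 in replicate 3 and -0.62 in replicate 5. Of the 34 genes called lower, replicate 5 was the lowest infarcted array in 23, replicate 3 in 9 and replicate 2 in 2. Without replicate 5 the median change was -0.41 with 31 genes lower, and without replicate 3 it was -0.42 with 30 lower.

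Counts of markers of other cell types are to be read against the 10.2% of all genes that were lower and the 10.1% that were higher. Of 12 fibroblast markers 11 were higher and 1 lower, with Mfap5 the smallest p (2.37), and their summed signal was 11440 to 12731 in sham and 25076 to 31681 in infarcted arrays. All 12 macrophage markers were higher (11 without infarcted replicates 4 and 5), with Lgals3 the smallest p (1.86), and sums of 3451 to 4428 and 5864 to 8157. Of 12 endothelial markers 1 was lower, Aqp1 (-0.29, adjusted p = 0.024), which did not pass without infarcted replicates 4 and 5 (0.0786), with sarcomere centring (0.0632) or without sham replicate 1 or 2 or infarcted replicate 3 or 5. The endothelial sums overlapped (15555 to 17755 and 15528 to 18743). Of 8 atrial markers 3 were higher and 1 lower; Nppa (2.04), which had the smallest p, also belongs to the stressed ventricle. Atrial sums were 6060 to 6972 and 14806 to 18855, and without Nppa 3351 to 4017 and 4177 to 7595. The atrial genes Myl7, Myl4 and Sln did not pass. Of 6 brown adipocyte markers Dio2 was higher (2.11) and 1 was lower, Cox7a1 (-0.29), and Ucp1 was near background at 4.78 in sham hearts. The sums were 16754 to 17811 and 13616 to 16266. Cox8b and Cox7a1, at 13.08 and 12.99 in sham hearts, weighed most in them, so the sums mainly describe this pair. With Ucp1 near background, neither these sums nor the calls of this list can be read as a change in brown adipocytes. The part of these cell types in the changes of fatty acid genes was not tested.

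**Figure D4:**
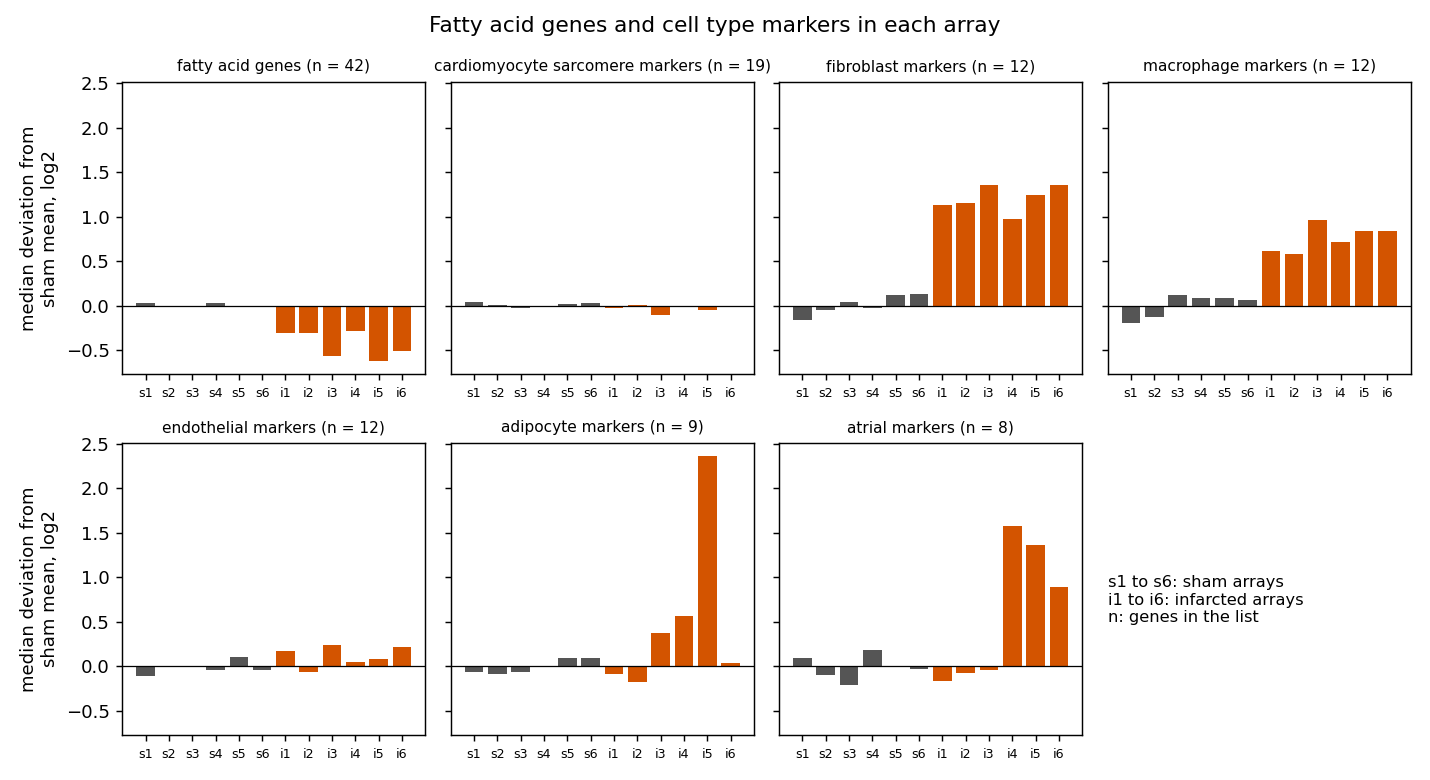
Median deviation from the sham mean, in log2 signal, of the 42 fatty acid genes and of 6 marker lists in each of the 12 arrays. The fatty acid genes lie from -0.62 to -0.29 in infarcted arrays, the sarcomere markers from -0.10 to 0.01, and infarcted replicate 5 stands out in adipocyte markers at 2.36.

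Other genes of fatty acid metabolism were examined as 7 further lists of 84 genes, 81 of them measured. These lists, too, were chosen with earlier results of these data known. Of the 81, 34 were lower (42%, against 10.2% of all genes) and 7 higher (10.1% of all genes were), with a median of -0.21. With sarcomere centring 23 were lower (5.87% of all genes) and 9 higher (2774 of all 20352 genes). Without infarcted replicates 4 and 5, 26 were lower (7.15% of all genes) and 6 higher (1667 of all genes). The higher calls among the 81 were thus near the share of all genes. The counts of each list below are to be read against the same shares. In mitochondrial oxidation 8 of 11 were lower and 2 higher (7 and 1 without infarcted replicates 4 and 5). Acad12 fell by 0.74, Acsf2, an acyl-CoA synthetase, by 0.48 and Hsd17b10, a hydroxyacyl-CoA dehydrogenase, by 0.44. Cpt1c, the brain form of carnitine palmitoyltransferase 1, rose by 0.78, from 6.70 ± 0.13 to 7.49 ± 0.12 (SD, n = 6). Whether it takes part in the shuttle here was not tested. Acot9 rose by 0.30 (adjusted p = 0.0401), a call kept in 3 of the 12 refits that each dropped an array, those without sham replicate 3 or 4 or infarcted replicate 6. It was also lost with the mean over probesets (0.17, adjusted p = 0.0751), array-median centring (0.0777), quantile normalization (0.0557), the replicate block (0.0518) and without infarcted replicates 4 and 5 (0.118).

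In uptake and activation 4 of 12 were lower and none higher (3 lower without infarcted replicates 4 and 5). Those lower included Acss1, the mitochondrial acetyl-CoA synthetase (-0.56), Acsl6 (-0.62) and the lipoprotein receptor gene Vldlr (-0.41). In peroxisomal oxidation 5 of 14 were lower and none higher, with a median of -0.28. Hsd17b4, the bifunctional enzyme, fell by 0.36, Phyh, which starts the breakdown of branched chains, by 0.37 and the peroxisomal transporter Abcd3 by 0.45. In glycerolipid synthesis and droplets 10 of 19 were lower and none higher (7 lower without infarcted replicates 4 and 5). The smallest p belonged to the droplet-forming gene Fitm1 (-0.56), Gpam, which starts glycerolipid synthesis (-0.49), and the droplet coat gene Plin3 (-0.46).

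Genes of fatty acid synthesis and desaturation were more often called higher than lower, with 5 of 12 higher, 1 lower and a median of 0.36. The 5 were the desaturase and elongase genes Scd1, Scd2, Elovl1, Fads1 and Fads2. Acaca, Acly and Fasn, which serve synthesis itself, differed by 0.24, 0.20 and 0.20. None of these passed (limma adjusted p = 0.279, 0.289 and 0.324), so a rise of synthesis was not shown. Scd2, a desaturase that adds the first double bond, rose by 0.72, from 8.67 ± 0.18 to 9.39 ± 0.11 (SD, n = 6), with no overlap. Scd1 and Fasn, a desaturase and the fatty acid synthase named after their values were seen, were at 10.21 and 9.0 in infarcted replicate 5, the array with the highest adipocyte markers, and at 8.99 to 9.51 and 8.10 to 8.47 in the other infarcted arrays. Without infarcted replicates 4 and 5 the list again had 5 higher and 1 lower. Elovl1, an elongase, rose by 0.43 and the desaturase Fads1 by 0.38. Me1, malic enzyme, was the member that fell (-0.26); it did not pass with arrays centred on the sarcomere markers (adjusted p = 0.055).

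Of 10 PPAR and ERR regulators 6 were lower and none higher, with a median of -0.32; without infarcted replicates 4 and 5 only 3 were lower. Ppara, the receptor that drives fatty acid oxidation genes in heart, fell by 0.46, from 9.78 ± 0.20 to 9.32 ± 0.32 (SD, n = 6; adjusted p = 0.0335), and Esrra by 0.34 (adjusted p = 0.0245). Those calls held in 6 and 8 of the 12 refits; Ppara lost its call without sham replicate 1, 2 or 3 or infarcted replicate 3, 5 or 6, and Esrra without sham replicate 4 or 6 or infarcted replicate 3 or 5. Both did not pass with sarcomere centring (adjusted p = 0.0639 for Ppara and 0.0641 for Esrra), and Esrra also failed with the replicate block (0.0592) and without infarcted replicates 4 and 5 (0.0854). Rxra, the partner receptor, fell by 0.30 and Esrrb by 0.36. The coactivator gene Ppargc1a differed by -0.04 (interval -0.29 to 0.21). Of 3 measured PPAR-responsive genes outside oxidation none passed in limma, and 1 had an unadjusted p under 0.05, Ucp2 (0.28, adjusted p = 0.133). Pdk4, which restrains glucose oxidation, differed by 0.20 (interval -0.03 to 0.42).

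**Figure D5:**
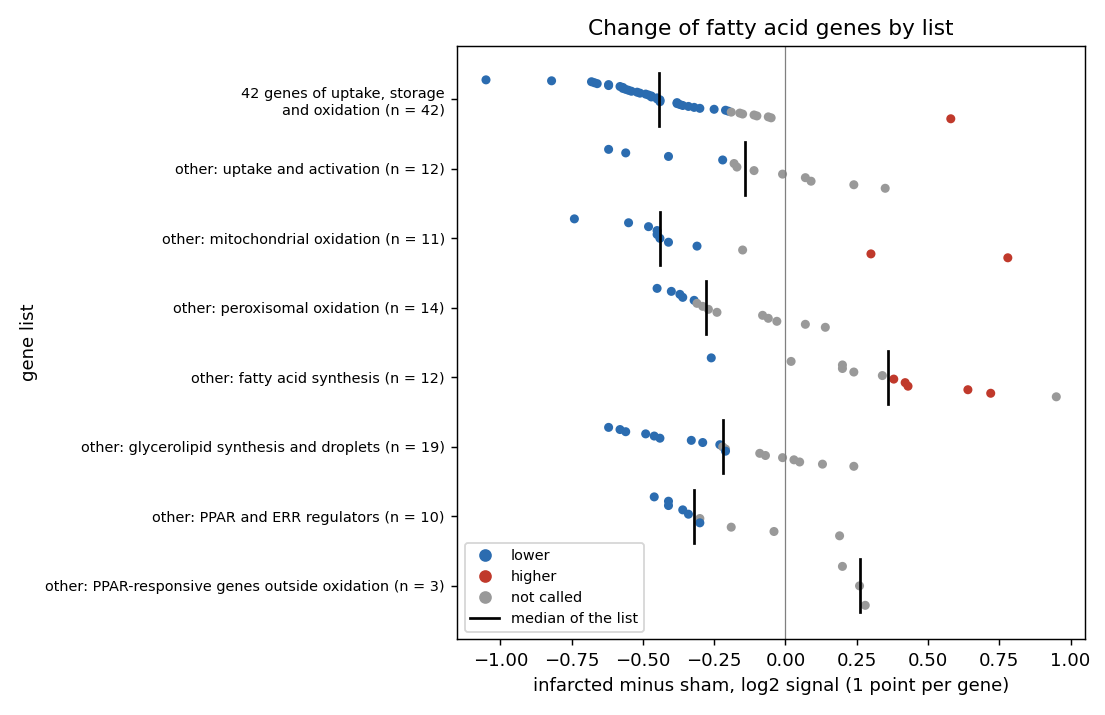
Difference between infarcted and sham arrays in log2 signal, with 1 point per gene, for the 42 genes and for 7 further lists of fatty acid genes; colour gives the call and the black bar the median of a list. The list of fatty acid synthesis also holds desaturases and elongases, and its median of 0.36 lies to the right of 0. Mitochondrial oxidation has a median of -0.44.

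Of the 34 falls, 30 were called in the principal fit and in all 20 other fits. The other 4 were Lpl, Cpt1b, Acadl and Acad10, and each lost its call with arrays centred on the sarcomere markers (adjusted p = 0.123, 0.193, 0.177 and 0.094). Among the 12 refits that each dropped an array, Lpl was called in 8, failing without sham or infarcted replicate 2 or 3. Cpt1b was called in 2, those without infarcted replicate 1 or 2. Acadl was called in 4, those without sham replicate 3 or 6 or infarcted replicate 2 or 4, and Acad10 in 4, those without sham replicate 4 or 6 or infarcted replicate 1 or 4. The 4 kept their direction throughout. Acad11 was called without sham replicate 2 (-0.27, adjusted p = 0.0422).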

How the data were processed

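RNA of 12 mouse hearts was measured on biotin-labelled, one-colour arrays. Affymetrix Power Tools is named in the submitters' processing notes, while summary, background and normalization methods were not given in the sources used here. Deposited values were read as log2 signals from their range (1.52 to 14.37), since the base is not stated. Of 241576 probesets, 212097 had 1 gene symbol in the platform annotation, and older symbols were updated through RefSeq synonyms, for 2 of the 42 genes. Whether background remains in the signals is not known, and levels of different genes were not tested against each other.

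All genes were fitted together with limma 3.58.1 in R 4.3.3 (lmFit, eBayes, two-sided, Benjamini-Hochberg over 20352 genes, threshold 0.05), 6 arrays per group. Intervals are 95%; those of pairs use the t distribution. The fit was tested on simulated data. Pairs of genes were compared by exact permutation of per-array differences. The members and lists were chosen with earlier results of these data known. Described in detail were the 2 genes of each role with the smallest p, any that rose, and pairs that differed; of each further list, up to 3 genes per direction, with Ppara, Ppargc1a and Esrra; of each marker list, at least the gene with the smallest p. The number of arrays limits precision. Alternatives were the mean over probesets, array centring, quantile normalization, sarcomere centring, a filter on dim probesets (under 5.58), a trend with a robust prior, a replicate block, and left-out arrays. Some genes of the lists were not analysed here.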

Additional observations from a re-analysis of the deposited data

Results flagged for a closer look

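Among the 84 sets of 6 arrays examined (42 genes in 2 groups), 4 held an array far from the other 5 by Dixon's criterion at the 95% level, where chance alone would give about 1 in 20. Acad11 was at 8.40 in sham replicate 2, against 9.29 to 9.54 in the other sham arrays. Cpt1b was at 11.76 in sham replicate 5, against 11.62 to 11.67. Ech1 was at 12.29 in sham replicate 5, against 12.44 to 12.50. Dgat2 was at 11.12 in infarcted replicate 3, against 11.42 to 11.56.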

How the results depend on the processing

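The number of the 42 genes called lower was 30 to 37 over the 20 alternatives, and the number called higher was 1 in each. Leaving out an array gave 30 to 33 lower. Groups share replicate numbers, but the deviations of same-numbered arrays correlated between -0.051 and 0.101, so the numbers were not taken as pairs. A fit with the replicate block gave 31 of the 42 lower and 1 higher, with Lpl, Cpt1b and Acadl losing their calls. Of the other fatty acid genes 30 were then lower, against 34 in the principal fit. Esrra and Acot9 were among those that lost their calls. With the mean over probesets Cd36, Acad9 and Acot13 were lower too. Of the other fatty acid genes 23 to 38 were lower and 6 to 10 higher. From 2 to 4 of the 9 pairs passed in the 16 alternatives run for them, quantile normalization being added after seeing the data. Signs turned where values lay near 0. With sarcomere centring Fabp3 was at 0.02, Cpt1a at 0.01 and Ppargc1a at 0.04; Ppargc1a was at 0.01 without infarcted replicates 4 and 5 and between -0.14 and 0.02 with an array left out (above 0 without infarcted replicate 4). The difference between Hadha and Hadhb was 0.07 with the mean over probesets, 0.01 without infarcted replicates 4 and 5, and -0.02 to 0.01 with an array left out (above 0 without sham replicate 2 or 3 or infarcted replicate 1). That between Acacb and Mlycd was 0.00 to 0.11 with an array left out (sign turned without infarcted replicate 6). The cause was not tested. Array centring cancels in pair differences; the trend with robust prior and the block were not run for pairs.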
